A study of Rattus norvegicus with 24 samples.

Results

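The macrophage and complement genes Cd163, Mrc1, Lyz2, C1qa, C1qb, C1qc, Trem2 and Slc11a1 were followed across rat carotid bodies (CBs), 8 genes of the 32623 that were counted. They were chosen by name, as rows whose Ensembl identifier is paired with one of these symbols in the part of the study's table of strain differences that was read, which pairs 1273 identifiers with a symbol and holds genes with higher values in the spontaneously hypertensive (SH) rat. The direction of the strain difference was therefore part of the choice, and strain values of the 8 genes are given as a description, with fold changes and their SE but no p-value, and with nothing drawn from how many passed a threshold. All 8 identifiers were found in the counts, and all 8 passed the filter on low values, a mean normalized count above 10 over the libraries, so none is left out.

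Polyadenylated RNA was sequenced from the left and right CBs of 6 male normotensive Wistar-Kyoto rats (WKY/NHsd) and 6 male SH rats (SHR/NHsd), all 12 to 14 weeks old, with no treatment named in the labels, and perfused with cold saline before dissection. Each library is 1 CB, so the 24 libraries come from 12 rats, and library totals ran from 9198341 to 13655419 counts. The main set has 23 libraries, 12 from WKY and 11 from SH rats, and leaves out the right CB of SH rat 34 as the study's own table does. The strains are separate inbred lines, so blood pressure and every other inherited difference between them cannot be told apart here. The labelled tissue was checked with 4 genes of its oxygen-sensing glomus cells, Dbh, Chga, Chgb and Ret, whose summed level was 921 to 2021 CPM (read counts scaled to a common library size by TMM) in the 23 libraries. In the library left out, the same sum was 77.0 CPM, each of the 4 genes was below all other libraries, and thyroglobulin (Tg), the precursor of thyroid hormone, stood at 7849 CPM against 0.0959 to 215 CPM elsewhere. That library is described apart from the rest.

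Macrophages live in every organ, where they take up debris, dying cells and microbes and present antigen. They are the main makers of C1q, the recognition molecule of the classical complement pathway, which binds antibody complexes and cell debris and is built from A, B and C chains encoded by C1qa, C1qb and C1qc. Cd163 and Mrc1 (CD206) encode uptake receptors of resident macrophages, Trem2 a lipid-sensing receptor that signals through Tyrobp, Lyz2 the bacteria-lysing enzyme lysozyme, and Slc11a1 (Nramp1) a metal ion pump of the phagosome membrane. In whole tissue, more cells of a type and more RNA per cell cannot be told apart.

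The 3 C1q chain genes are consecutive genes on chromosome 5 of RefSeq's rat assembly GRCr8, in the order C1qb, C1qc, C1qa. Promoter sequences of 300 bases, from 250 before to 50 after the start, were matched by symbol for 6 of the 8 genes (not C1qc and Slc11a1), and the pair from the C1q cluster is printed because the levels of its genes moved together in the libraries. Both are on the minus strand, C1qa at chr5:154419884-154420183 and C1qb at chr5:154407778-154408077, written 5′ to 3′ with matches to the searched motifs in capitals.
C1qa: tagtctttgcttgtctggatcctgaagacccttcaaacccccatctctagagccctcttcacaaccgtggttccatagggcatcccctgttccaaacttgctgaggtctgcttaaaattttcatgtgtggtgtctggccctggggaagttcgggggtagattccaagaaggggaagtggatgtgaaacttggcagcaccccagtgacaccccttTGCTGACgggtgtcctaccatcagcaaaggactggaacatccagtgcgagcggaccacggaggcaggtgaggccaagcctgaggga
C1qb: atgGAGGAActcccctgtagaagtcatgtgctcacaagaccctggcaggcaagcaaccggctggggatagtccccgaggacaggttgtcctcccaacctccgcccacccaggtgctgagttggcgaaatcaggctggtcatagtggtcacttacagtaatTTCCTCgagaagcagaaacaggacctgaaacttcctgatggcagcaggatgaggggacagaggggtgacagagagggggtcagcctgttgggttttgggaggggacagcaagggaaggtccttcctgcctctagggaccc
The 3 motifs, named for transcription factors active in macrophages, were searched on both strands and did not overlap one another in these windows. The core GAGGAA of PU.1, the factor encoded by Spi1, was found in 27.6% of all 33469 RefSeq promoters of this length. Counted in bases from the start, it began at -247 and -90 in C1qb, at -180 and -35 in Mrc1, at -46 in Lyz2 and at -29 in Trem2. The Maf element core TGCTGAC was in 4.44% of promoters, and among the 6 genes only in C1qa, at -36. The AP-1 letters TGAGTCA were in 4.63% of promoters and in none of the 6, and the Cd163 window held none of the 3 motifs.

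All C1q chain genes had higher levels in SH rats, by a similar factor. C1qa was at 17.6 CPM in the lowest WKY rat, 29.3 in the median and 30.9 in the highest, against 36.2, 42.1 and 46.5 CPM in SH rats. The strains did not overlap, with means of 26.7 ± 5.22 CPM in WKY and 41.6 ± 4.10 CPM in SH rats (SD, n = 6 rats each, sides averaged) and a log2 fold change of 0.63 (SE 0.11) in edgeR. C1qb ran from 14.2 over a median of 19.2 to 22.3 CPM in WKY rats and from 23.8 over 29.7 to 34.6 CPM in SH rats, again with no overlap (log2 fold change 0.60, SE 0.10). C1qc ran from 18.5 over 25.7 to 33.5 CPM in WKY and from 31.2 over 37.6 to 48.0 CPM in SH rats (log2 fold change 0.57, SE 0.11). Here 1 WKY rat, number 37, was above the lowest SH rat, number 30, and 5 of 6 SH rats were above every WKY rat.

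The uptake receptors were also higher on average, but SH rats differed widely among themselves. Cd163, the scavenger receptor for haemoglobin bound to haptoglobin, was at 1.15, 2.85 and 3.56 CPM in the lowest, median and highest WKY rat and at 1.88, 4.80 and 8.56 CPM in SH rats. Its log2 fold change was 0.84 (SE 0.26) and 0.56 without SH rat 37, and its coefficient of variation over rats was 30.7% in WKY and 47.2% in SH rats. Mrc1, the mannose receptor, was at 16.7, 20.3 and 23.3 CPM in WKY rats and at 16.1, 34.2 and 42.5 CPM in SH rats (log2 fold change 0.61, SE 0.18). The lowest SH rat was below every WKY rat for Mrc1, and 4 of 6 SH rats were above every WKY rat for either receptor. The spread of Mrc1 was 14.5% of the mean in WKY and 34.3% in SH rats, whereas that of C1qa was 19.6% in WKY and 9.84% in SH rats.

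Trem2 ran from 3.35 over 5.84 to 6.65 CPM in WKY rats and from 5.36 over 7.99 to 9.96 CPM in SH rats (log2 fold change 0.60, SE 0.15), with 1 SH rat, number 34, inside the WKY range. Lyz2 had the smallest difference of the 8 genes, with 373, 447 and 523 CPM in the lowest, median and highest WKY rat and 489, 559 and 665 CPM in SH rats (log2 fold change 0.33, SE 0.09). RefSeq lists Lyz2 also as a synonym of the near-identical lysozyme gene Lyc2, so reads of these genes may have been divided, and the Lyz2 level is uncertain.

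Slc11a1 stood apart from the other genes by the size of its difference. Its levels were 3.25, 3.32 and 5.07 CPM in the lowest, median and highest WKY rat and 11.1, 14.8 and 20.8 CPM in SH rats, a 3.95-fold higher mean. It was the only one of the 8 whose single libraries separated by strain, with 1.85 to 5.85 CPM (19 to 60 counts) in the 12 WKY libraries and 8.87 to 21.0 CPM (85 to 257 counts) in the 11 SH libraries. The log2 fold change was 1.97 (SE 0.17), 2.18 in left CBs alone and 1.75 in right CBs alone, while those of the other 7 genes lay between 0.33 and 0.84 (plot of the level in each library).

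**Figure D1:**
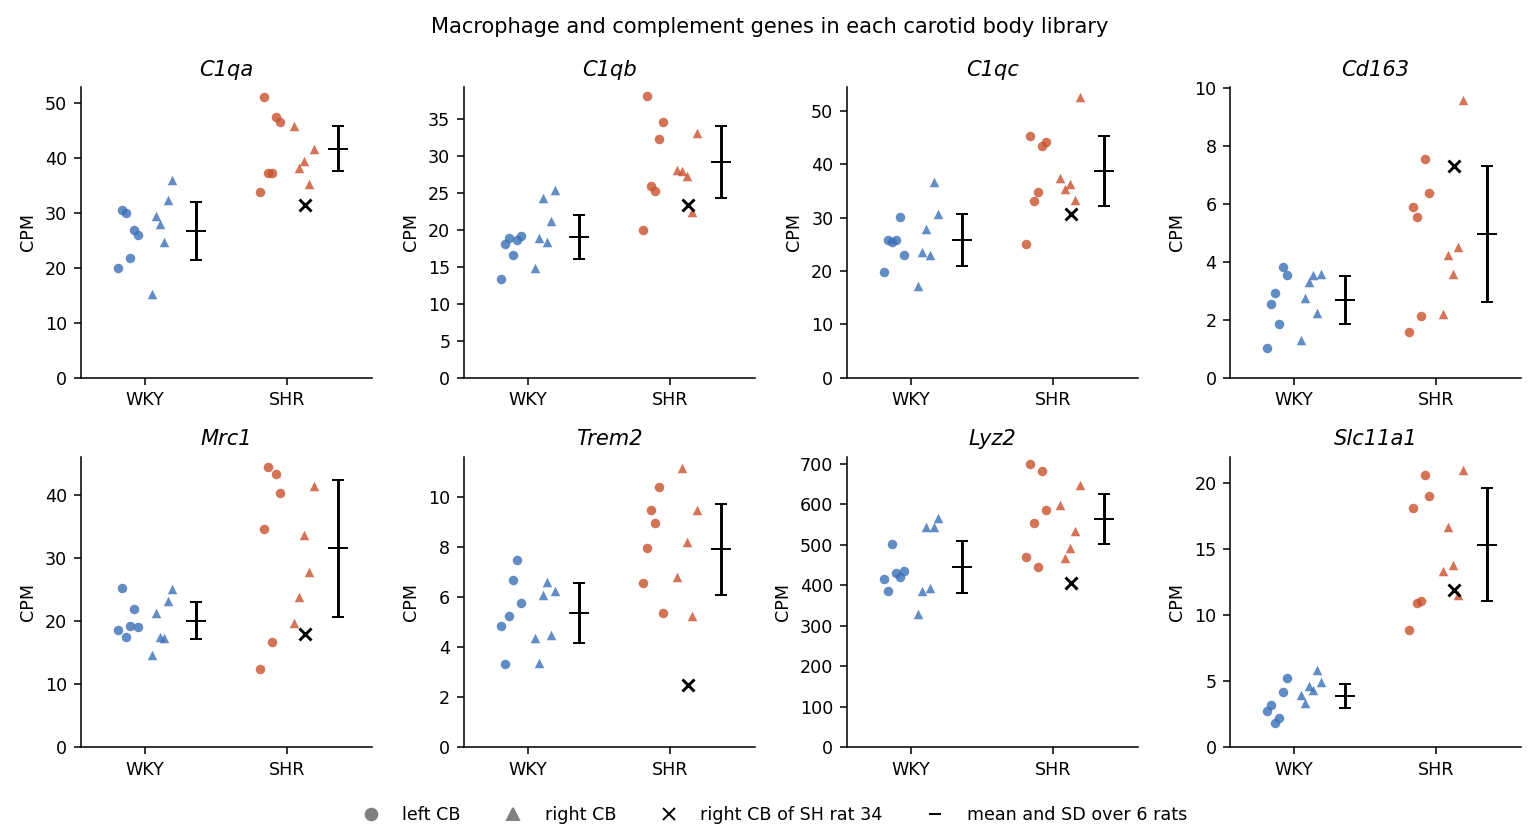
Level of each gene in CPM for every library, with circles for left and triangles for right CBs, a cross for the right CB of SH rat 34, and a bar for the mean and SD over 6 rats per strain. Slc11a1 is the gene whose WKY and SHR libraries do not overlap, while single SHR libraries of Cd163 and Mrc1 lie within or below the WKY range.

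The strains separated completely over rats in 3 of the 8 genes, C1qa, C1qb and Slc11a1. Over all 14258 genes tested, 3.39% had every SH rat above every WKY rat, and 7.06% separated in either direction. In the strain comparison, which takes the CBs of a rat as separate samples, 8 of the 8 genes lay under an adjusted p of 0.05 in edgeR, against 10.2% of all genes with higher values in SH rats and 20.1% in either direction. That count follows from the choice of names. It was 6, without Cd163 and Mrc1, when counts were summed per rat or the rat was a block in voom. It was 5 in left CBs alone, and 1, Slc11a1, in right CBs alone. Without SH rat 37 it was 5, lacking Cd163, Mrc1 and Lyz2. Calls over all genes, in either direction, also fell in these fits, from 2863 of 14258. They were 2041 of 15130 with counts summed per rat, 2315 of 14258 in voom and 2560 of 14247 without SH rat 37. Left CBs alone gave 1270 of 14223 and right CBs alone 838 of 14251. Among SH rats, number 37 was highest in 6 of the 8 genes and number 34 in C1qa and C1qb, while number 30 was lowest in 4 genes and number 36 in 3. Among WKY rats, number 32 was lowest in 6 of the 8 genes, all but Trem2 and Slc11a1. SH rat 34 entered these rat values by its left CB alone.

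The level of each gene relative to C1qa in the same rat gives the proportions between the genes. The log2 ratio of C1qb to C1qa was -0.48 ± 0.14 in WKY and -0.53 ± 0.12 in SH rats (SD, n = 6 rats each), and that of C1qc to C1qa was -0.05 ± 0.18 and -0.11 ± 0.15. The ratios among C1q chains overlapped between the strains. The log2 ratio of Slc11a1 to C1qa was -2.79 ± 0.33 in WKY rats and -1.48 ± 0.28 in SH rats, with rats from -3.18 to -2.39 and from -1.84 to -1.10. Its single libraries also fell on either side, from -4.01 to -1.95 in WKY and from -1.93 to -0.99 in SH rats, so the highest WKY and the lowest SHR library nearly touched. The log2 ratio of Lyz2 was 4.08 ± 0.24 in WKY and 3.76 ± 0.08 in SH rats with rats overlapping, and the ratios of Cd163, Mrc1 and Trem2 overlapped too. Ratios are differences between genes in count and not per length of transcript, so only their change between rats has a meaning.

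**Figure D2:**
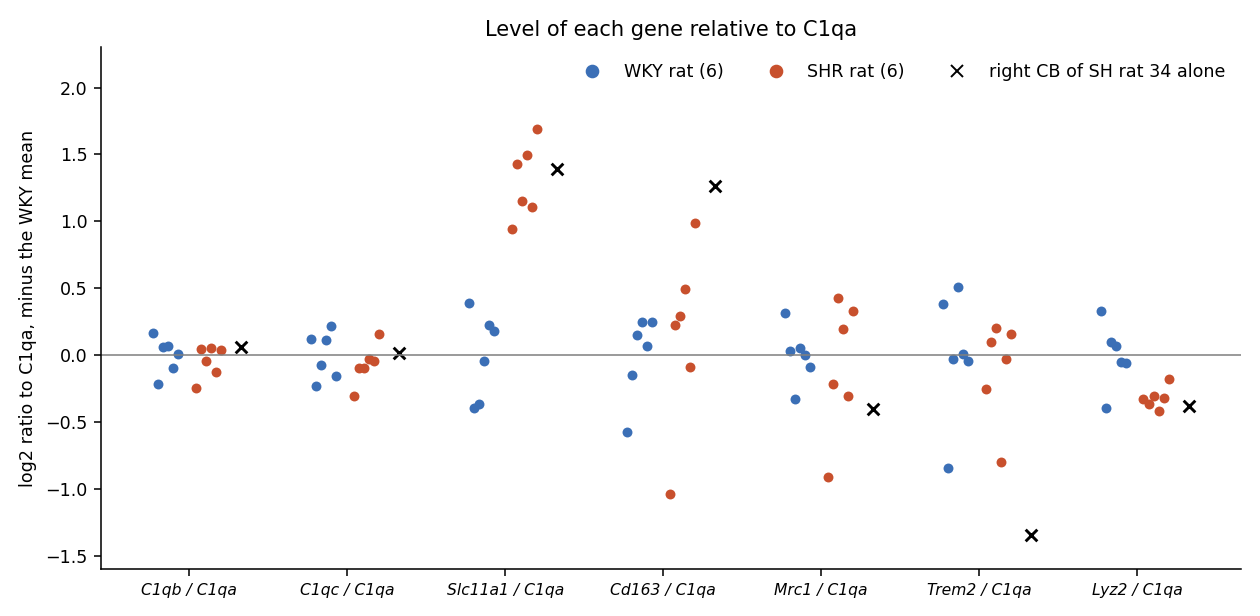
Log2 ratio of each gene to C1qa in each rat, shown as the difference from the WKY mean, with 6 WKY rats in blue, 6 SH rats in orange and the right CB of SH rat 34 as a cross. The SH rats lie above all WKY rats for Slc11a1, and the strains overlap for the other 6 ratios.

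The right CB of SH rat 34 was not in the table that chose the genes, and gives a view of them in a sample with few glomus transcripts. It is 1 library, so no test was possible. Over all genes tested, 24.6% lay above and 28.8% below all other 23 libraries in it. Of the 8 genes, 7 lay within the range of the others and only Trem2 lay below, at 2.48 CPM (20 counts) against 3.31 CPM in the next lowest library. Slc11a1 was at 11.9 CPM (96 counts) and Cd163 at 7.30 CPM (59 counts), both above every WKY library, whose highest values on the same scaling were 5.78 and 3.76 CPM. C1qa was at 31.3, C1qb at 23.4 and C1qc at 30.7 CPM, which lay within the WKY range, for C1qb and C1qc also within the SHR range, and their ratios to one another were like those of the other libraries (log2 C1qb to C1qa -0.42 and C1qc to C1qa -0.03). The log2 ratio of Slc11a1 to C1qa was -1.40, within the SHR range and above every WKY library. Against the left CB of the same rat, 7 genes were lower, from 0.45 times for Mrc1 to 0.70 times for C1qc, and Cd163 was 1.16 times as high. The sum of the other macrophage and myeloid genes listed below was 613 CPM, within the 358 to 765 CPM of the 23 libraries. Single genes in that sum moved in both directions, as 6 of the 35 lay above and 6 below all 23 libraries. Sirpa, at 176 CPM against at most 137 elsewhere, was among those above, and Folr2, at 0.990 CPM against at least 1.98, among those below. Adipocyte genes summed to 461 CPM against 54.6 to 138 and mast cell genes to 35.5 CPM against 1.42 to 24.4.

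The comparison of left and right CBs did not enter the choice of genes and could be tested. Left and right CBs were compared over both strains in the 23 libraries, with strain as covariate and without pairing the CBs of a rat. In edgeR, 0 of 14258 genes (0.0%) passed an adjusted p of 0.05, with 702 at an unadjusted p under 0.05 and 0 calls by DESeq2. With the rat as a block, which pairs them, 0 genes passed in 22 libraries. None of the 8 genes passed in either fit. Without the block, their log2 fold changes of left over right ran from -0.24 for Slc11a1 to 0.08 for Mrc1. For the C1q genes the 95% intervals were narrow, from -0.23 to 0.20 for C1qa, from -0.29 to 0.14 for C1qb and from -0.30 to 0.16 for C1qc. For Cd163, the lowest-expressed gene, the interval ran from -0.58 to 0.51, and from -0.51 to 0.27 with the rat as a block. Side differences of Cd163 within these intervals remain possible.

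Slc11a1 was the gene nearest to a side difference. In WKY rats its level was 1.85, 2.98 and 5.24 CPM in the lowest, median and highest left CB and 3.37, 4.47 and 5.85 CPM in right CBs, and in SH rats 8.87, 14.6 and 20.6 CPM in left and 11.6, 13.8 and 21.0 CPM in right CBs. Sides overlapped in both strains, but within rats the left CB was lower in 9 of 11 rats with both sides. The mean of left minus right was -0.30 ± 0.35 on the log2(CPM + 1) scale (SD, n = 11), with an exact two-sided sign-flip permutation p of 0.0205 that is unadjusted and the smallest of the 8 genes. Across all genes the difference did not pass, with an adjusted p of 0.955 in edgeR. With the rat as a block, the log2 fold change was -0.33, its 95% interval -0.59 to -0.06 and its adjusted p 0.70. C1qb was also lower on the left in 9 of 11 rats, among them all 6 WKY rats (exact sign-flip p = 0.168). The remaining 6 genes were higher on the left in 3 to 6 of 11 rats.

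**Figure D3:**
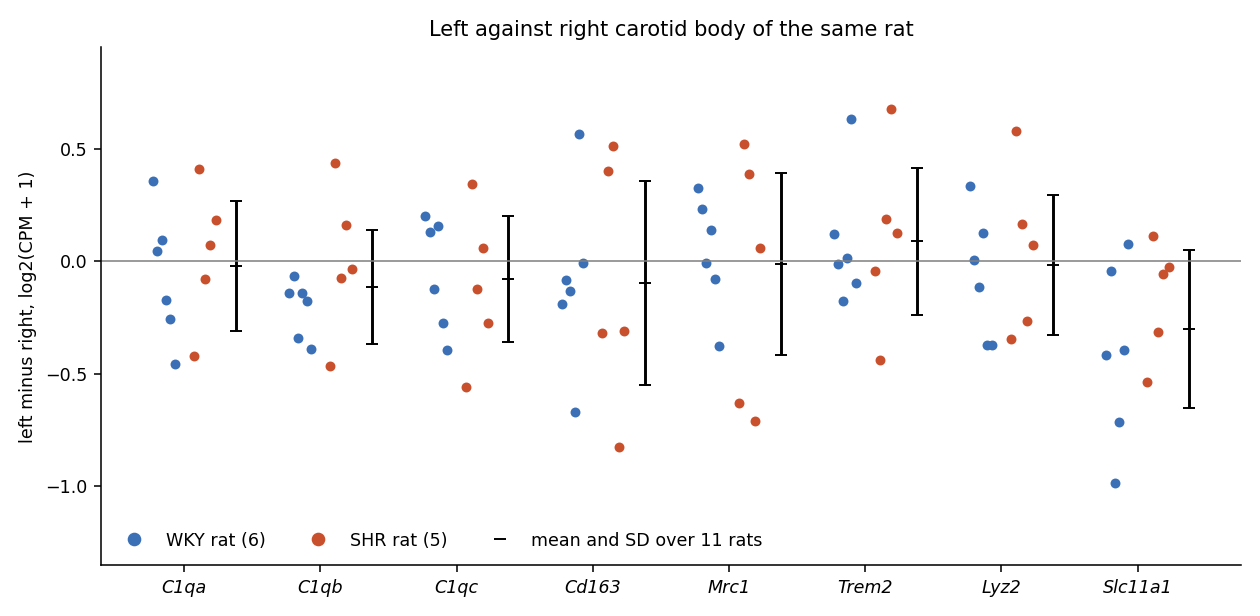
Left minus right CB of the same rat on the log2(CPM + 1) scale for each gene, with 6 WKY rats in blue, 5 SH rats in orange and a bar for the mean and SD over 11 rats. The points lie on both sides of 0 for every gene, and 9 of 11 rats lie below 0 for Slc11a1 and C1qb.

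Within each strain, 0 of 14238 genes passed between sides in WKY rats (284 at an unadjusted p under 0.05) and 0 of 14200 in SH rats (781 unadjusted). The 8 genes had log2 fold changes of left over right from -0.47 to 0.10 in WKY and from -0.04 to 0.14 in SH rats. The difference between these effects was tested as the interaction of strain and side, which 0 of 14258 genes passed (438 unadjusted). For the 8 genes the interaction ran from -0.11 for Trem2 to 0.42 for Slc11a1 on the log2 scale, with 95% intervals of -0.74 to 0.52 and -0.27 to 1.12, and all adjusted p were 0.999. A strain difference that depends on side was not detected, and the widest interval, that of Cd163, ran from -1.01 to 1.22.

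Differences between rats of one strain also did not enter the choice. With the strain mean removed, the 8 genes moved together over the 12 rats: all 28 pairs had a positive Pearson r, from 0.02 to 0.89 with a median of 0.70. After Benjamini-Hochberg adjustment over the 28 pairs, 18 passed 0.05 by r and 15 by Spearman's rho in permutation tests of 100000 resamples. Leaving out the 2 rats farthest from the median on the x axis kept 26 of 28 pairs positive with a median r of 0.63. A mean of r per gene spreads less than r of single pairs, so the like measure for the 8 genes is the mean r of each with the others. That had a median of 0.64, from 0.25 for Trem2 to 0.74 for Cd163. For comparison, the mean r of a gene with the 8 had a median of -0.00 over all 14258 genes tested and a 95th percentile of 0.47. The points of a pair share library and scaling, and genes are not independent replicates.

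The closest pair was Cd163 and C1qb (r = 0.89, permutation p = 2e-05, adjusted p = 0.00056, rho = 0.94, n = 12 rats), whose r was 0.82 without the 2 farthest rats. C1q chains correlated with one another at r = 0.79 to 0.86, and Cd163 with C1qc at 0.87 and with Mrc1 at 0.85. Slc11a1, which differed most between strains, followed C1qc (r = 0.79, adjusted p = 0.00697) and Cd163 (r = 0.76, adjusted p = 0.00697) within strains. Trem2 was the exception: its 7 pairs had r from 0.02 with C1qa to 0.47 with Lyz2, and none passed. Without the 2 farthest rats the r of these pairs ran from -0.32 with C1qa to 0.63 with Slc11a1, so single values are uncertain. Ranked by mean r with the other 7 genes among all genes tested, Cd163 was number 3, C1qb 5, C1qc 8, Lyz2 47, Slc11a1 79, C1qa 182, Mrc1 294 and Trem2 2984.

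The same was asked of the left minus right differences, which remove everything the CBs of a rat share. Over the 11 rats with both sides, the 28 pairs had r from -0.49 to 0.85 with a median of 0.16, and 21 were positive. The median was 0.10 without SH rat 30, 0.28 without SH rat 36 and 0.31 without WKY rat 41. By r, 5 pairs passed after adjustment, and by rho 1 did. Mrc1 and Lyz2 were closest (r = 0.85, permutation p = 0.00107, adjusted p = 0.03, rho = 0.88, r = 0.91 without the 2 farthest rats). The C1q chains stayed together at r = 0.71 to 0.76, of which C1qa with C1qc (adjusted p = 0.0447) and C1qb with C1qc (adjusted p = 0.0447) passed and C1qa with C1qb (adjusted p = 0.0535) did not. Without the 2 farthest rats these 3 values were 0.53, 0.45 and 0.50. Lyz2 also followed C1qa (r = 0.79, adjusted p = 0.0447) and C1qc (r = 0.77, adjusted p = 0.0447). Cd163, so close to the C1q genes between rats, had r from -0.07 to 0.10 with them between sides. Without the 2 farthest rats, r of Cd163 with the C1q genes ran from 0.17 to 0.47, so the low values rest in part on those rats.

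**Figure D4:**
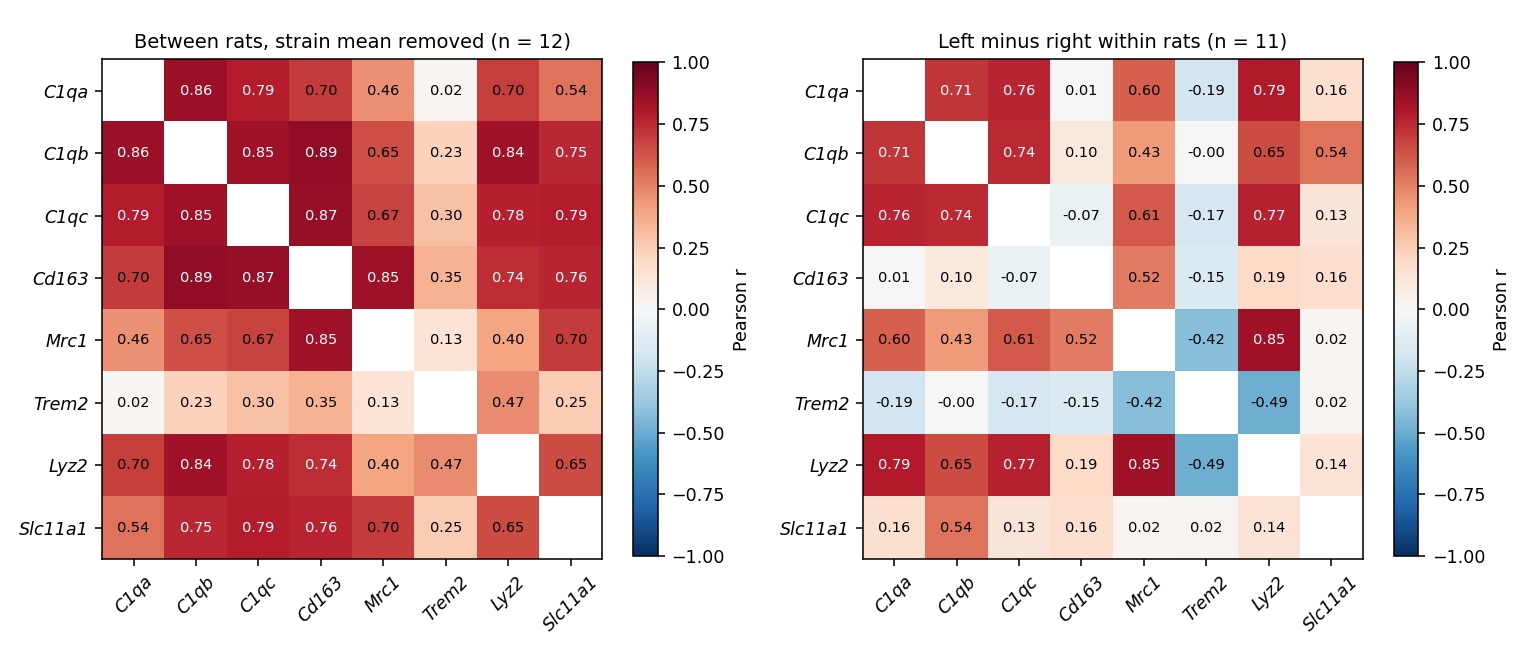
Pearson r between the genes over 12 rats with the strain mean removed (left panel) and between their left minus right differences over 11 rats (right panel), on a color scale from -1 to 1. Between rats all pairs are positive and the row of Trem2 is palest, while between sides the pairs among C1qa, C1qb, C1qc and Lyz2 have r from 0.65 to 0.79 and all pairs of Trem2 lie between -0.49 and 0.02.

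The 10 named genes most like the 8 over rats were Fhl1, Pltp, Bdkrb2, Tmeff2, Clec10a, Sgca, Gpr182, Fblim1, Fhl2 and Slc12a4, with mean r from 0.74 to 0.66 and ranks from 2 to 38 of 14258. They are the most alike of the 1273 genes with a symbol and not of all genes, and the gene ranked first, ENSRNOG00000018346 (mean r 0.75), has none here. Fhl1 encodes a LIM-domain protein of muscle, Pltp a phospholipid transfer protein of plasma lipoproteins and Bdkrb2 the bradykinin B2 receptor. Of these 10, Clec10a, a galactose-binding lectin of macrophages, was also near the top between the sides of a rat, at rank 2 with a mean r of 0.53. Pltp was at rank 297 with a mean r of 0.38, where the 95th percentile of all genes was 0.32. Tmeff2 ranked 1737, Fhl2 1934, Fblim1 3274, Fhl1 4711, Sgca 6708, Slc12a4 11272, Bdkrb2 12100 and Gpr182 12244.

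Other named genes of macrophages, complement and further cell types gave the setting. All had to be named in the table of genes higher in SH rats, so their direction carries no information, and their counts are descriptions. The same choice bears on how many pass, so these counts are no result about the lists. Over all genes tested, 10.2% passed with higher values in SH rats and 20.1% in either direction. Of 35 other macrophage and myeloid genes, 20 passed in the strain comparison, all higher in SH rats. Their median log2 fold change was 0.43, against 0.61 for the 8 genes and 0.01 for all genes tested. Their summed level was 360 to 501 CPM in the WKY libraries (median 468) and 535 to 776 CPM in the SHR libraries (median 614), with no overlap. Over 6 and 6 rats, 9 of the 35 separated by strain, against 3.39% of all genes tested with every SH rat above every WKY rat. These 9 included Stab1, an uptake receptor (41.6 ± 6.14 CPM in WKY and 66.7 ± 14.6 CPM in SH rats), and Clec10a (16.4 ± 1.86 and 28.3 ± 6.75 CPM). They also included the chemokine gene Ccl6 (5.92 ± 0.865 and 11.6 ± 2.73 CPM) and Folr2, a folate receptor of resident macrophages (3.02 ± 0.542 and 5.53 ± 1.05 CPM). Tyrobp, the adaptor of Trem2, was at 13.8 ± 1.56 and 18.1 ± 2.52 CPM and Spi1 at 6.46 ± 1.37 and 8.53 ± 1.62 CPM, both with overlapping rats. Itgam, the alpha chain of complement receptor CR3, had a log2 fold change of 0.31 (SE 0.19) and did not pass (edgeR adjusted p = 0.266).

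All 7 other complement genes passed, against 10.2% of all genes tested with higher values in SH rats, a count that the choice of names bears on. Their median log2 fold change was 0.71. Their summed levels were 826 to 1338 CPM in WKY and 1287 to 1917 CPM in SHR libraries, which overlapped. C6 and C7 encode parts of the membrane attack complex. C6 was at 6.03 ± 0.879 CPM in WKY and 15.8 ± 5.39 CPM in SH rats, and C7 at 792 ± 102 and 1073 ± 156 CPM (SD, n = 6 rats each). C5ar1, the receptor for the fragment C5a, was at 7.92 ± 1.11 and 10.6 ± 1.19 CPM. In the library of SH rat 34 that was left out, where the C1q genes lay within the range of others, C7 was at 125 CPM, below all 23 others, while Clu, a chaperone that restrains the attack complex, was at 420 CPM and above them.

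Markers of other cells passed in part, with a direction fixed by the same choice, against 10.2% of all genes tested with higher values in SH rats. Mast cell genes passed in 3 of 3 (median log2 fold change 2.18, summed level 1.43 to 3.71 CPM in WKY and 3.69 to 25.0 CPM in SHR libraries), glomus genes in 4 of 4 (0.55, 926 to 1411 and 1170 to 2048 CPM) and endothelial genes in 3 of 5 (0.30, 267 to 388 and 361 to 470 CPM). Lymphocyte genes passed in 3 of 14 (0.54, 30.5 to 53.6 and 44.5 to 86.3 CPM), genes of antigen presentation by MHC class II in 2 of 3 (0.31, 358 to 571 and 407 to 858 CPM), smooth muscle genes in 1 of 5 (0.52, 321 to 1034 and 532 to 1343 CPM) and adipocyte genes in 1 of 5 (0.56, 55.3 to 102 and 68.1 to 139 CPM). Tg passed too (3.17, 0.0970 to 10.7 and 0.461 to 218 CPM), and no gene of any list was at 0 in all 23 libraries. What part these cells had in the strain values of the 8 genes was not tested.

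**Figure D5:**
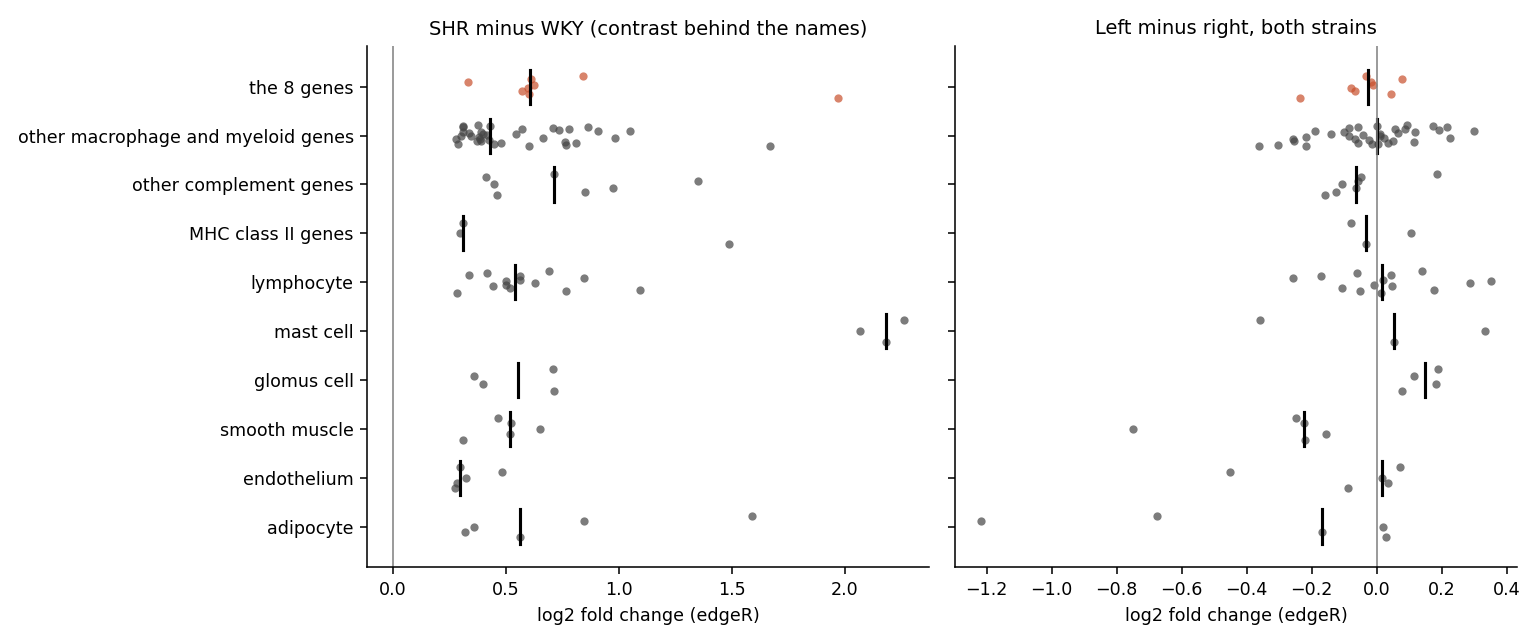
Log2 fold change of each gene (points) and the median (bar) of the 8 genes and of 9 lists of named genes, for SHR minus WKY (left panel) and left minus right (right panel) in edgeR. All lists lie above 0 in the strain panel, as their choice requires, and the 8 genes and the other macrophage genes are centered near 0 in the side panel.

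Between sides, 0 genes of any list passed. The 35 other macrophage and myeloid genes had 18 positive and 17 negative log2 fold changes of left over right with a median of 0.00, and the 8 genes 2 positive and 6 negative with a median of -0.03. All 5 smooth muscle genes were lower on the left (median -0.23) and all 4 glomus genes higher (median 0.15) without passing. Over rats with the strain mean removed, the median of mean r with the 8 genes was 0.32 for the other macrophage and myeloid genes. It was 0.41 for other complement genes, 0.48 for MHC class II, 0.47 for adipocyte and 0.35 for smooth muscle genes. It was 0.17 for lymphocyte, 0.15 for endothelial and 0.07 for mast cell genes, -0.01 for glomus genes and -0.21 for Tg. In the top 5% of all genes were 9 of 35 other macrophage and myeloid, 3 of 7 other complement, 2 of 3 MHC class II and 2 of 5 adipocyte genes. So were 1 of 5 smooth muscle and 1 of 14 lymphocyte genes, and none of the remaining lists. The part of adipose and vessel tissue in the shared movement of the 8 genes was not tested.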

How the data were processed

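Raw counts per Ensembl gene were deposited by the authors, who, per the labels and the study's methods, aligned reads of stranded polyA libraries with STAR and counted them with featureCounts. Versions, genome build, annotation and settings for strand and multiple mapping are not given in the sources used here. The genes, lists and tests were chosen with earlier results of these data known. Genes were named by rule: the 8, those of the marker lists and the 10 with a symbol most alike over rats.

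Counts were scaled by TMM in edgeR 4.0.16 (R 4.3.3), genes were kept at a mean normalized count of more than 10, and log2 fold changes come from robust quasi-likelihood fits with Benjamini-Hochberg adjustment at 0.05. Strain was fitted with side as covariate, and side with strain. CPM values were averaged over the sides of a rat, and correlations used log2(CPM + 1). DESeq2 1.42.0 and limma 3.58.1 (voom) were alternatives, and tests were checked on simulated counts without a rat effect. The p-values of the main fits measure the spread between libraries, with the CBs of a rat as separate samples. Permutation and sign-flip p-values take rats as units. No libraries were alike within sampling noise: chi-square divided by its degrees of freedom was at least 4.97 over 276 pairs. Left and right CBs of one number are of one rat (r of their deviations -0.03 to 0.26, median 0.12, 11 rats), whereas numbers shared between strains do not pair rats. Alternatives were other size factors, tests and filters, all 24 libraries, single sides, counts summed per rat, rat blocks and leaving out each rat. Promoters are from RefSeq GRCr8 and were not matched to the build of the counts. Values of 1 gene of the complement list are not reported here.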

Additional observations from a re-analysis of the deposited data

Results flagged for a closer look

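C1qc in the right CB of SH rat 37 was at 51.9 CPM, far from the other 5 right CBs of SH rats at 30.7 to 36.9 CPM, on the scaling over all 24 libraries. The lowest of those 5, at 30.7 CPM, is the right CB of SH rat 34, which the main set left out. The library of rat 37 was the 1 that stood apart in 32 groups of 6 tested (8 genes, 4 groups). By chance about 1 group in 20 holds such a library, so 1 in 32 groups is not beyond chance.

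The remaining values come from the right CB of SH rat 34, which the comparisons left out. There Cd163 was at 7.30 CPM and Slc11a1 at 11.9 CPM, above every WKY library (1.01 to 3.76 CPM and 1.84 to 5.78 CPM). The difference is between 1 library and 12 and was not tested.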

How the results depend on the processing

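The 8 strain differences ran from 0.25 (Lyz2, right CBs alone) to 2.18 (Slc11a1, left CBs alone) on the log2 scale over the alternatives. Their positive sign in all of them follows from the choice of names from these same libraries and is no test of the genes. No side or interaction call was gained by any of the 8. The number of the 8 under the threshold between strains, 8, was 6 with all 24 libraries (Lyz2 and Trem2 lost), 6 with counts summed per rat or with the rat as a block in voom (Cd163 and Mrc1 lost), 5 in left CBs alone (Cd163, Mrc1 and Trem2 lost), 1 in right CBs alone, 7 with the block of shared rat numbers (Trem2 lost), and 5 to 8 without 1 rat, with losses of Cd163, Mrc1 or Lyz2 without WKY rat 32 or SH rats 31, 33 or 37. Without SH rat 37 the log2 fold change of Cd163 between strains was lowest among the fits without 1 rat, which ran from 0.56 to 1.02. The count of genes differing between strains, 2863, was 1483 with all 24 libraries, 2041 with counts summed per rat and 2193 to 2831 without 1 rat. It was 1270 in left CBs alone, 838 in right CBs alone and 1568 with a replicate block for the rat numbers shared by strains. The fits on fewer libraries hold fewer samples, and the cause of the drop with all 24 was not tested. With the rat as a block, 1 gene passed between sides in SH rats, none of the 8. The rat as a block in edgeR changed no call of the 8 genes between sides or in the interaction, and in voom it gave 2315 genes between strains. The count of the 8 genes with separate strains, 3, was 1 in right CBs alone and 3 to 4 without 1 rat. The share of all genes that separate is not given for these settings, so nothing is drawn from the changes in this count. The median r over rats, 0.70, was 0.62 with all 24 libraries and 0.63 to 0.74 without 1 rat. The median r between sides, 0.16, was 0.40 with all 24 libraries and 0.10 to 0.31 without 1 rat, lowest without SH rat 30 and highest without WKY rat 41. Cd163, Slc11a1 and Trem2 rest on the fewest counts (10 to 60 in WKY libraries for the first pair), which limits their precision.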
